A study of Mus musculus with 120 samples.

Results

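The 40 genes described here carry out DNA replication and mitosis. They were chosen by symbol from both count tables, all 40 were present among 55487 shared rows, and each passed the filter on low counts in every comparison below. They comprise 12 genes that load or form the replicative helicase, 9 that synthesize DNA or its precursors, 4 regulators of entry into S phase and 15 that act in mitosis. The values are RNA levels in immunological niches (INs), porous polymer scaffolds placed under the skin that fill with host cells and can be removed and replaced as a biopsy.

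All mice were female and carried 1 or more INs, and the labels give no drug and no engineered allele for any group. NOD/ShiLtJ mice, which develop autoimmune diabetes, were divided by outcome into progressors, which became hyperglycemic, and nonprogressors, which did not, and NOR/LtJ mice, a related strain that carries the same H2g7 haplotype and stays normoglycemic, served as the strain control. The series holds 58 samples from 10 progressors (6 weeks of age, then 7, 5, 3 and 1 weeks before onset, and onset), 39 samples from nonprogressors (6, 10, 14, 18 and 22 weeks, and 6 samples labelled by days after implantation) and 23 samples from 5 NOR mice (6, 10, 14, 18 and 22 weeks). Libraries came from 2 sequencing batches, NOR mice are in batch 1 alone, and all 8 samples taken 7 weeks before onset are in batch 2. Of those 8, 4 came from progressors whose other samples are in batch 1. Explants began at 6 weeks and each removed IN gave way to a new one, in rotation, so the 6-week INs belong to the first set placed. Between them and later INs, age, time in place and earlier surgery cannot be told apart.

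Cells copy their DNA once per division. The MCM2-7 complex is loaded onto origins in G1 by Cdc6 and Cdt1 and becomes an active helicase in S phase together with Cdc45 and the GINS complex. The E2F factors with their DP partner (Tfdp1) switch on many replication genes at the G1/S boundary, and mitotic genes such as Cdk1, its cyclins, the Aurora kinases and the spindle checkpoint kinases peak later, in G2 and M phase, through the MuvB-type complexes that read the CHR element. In a healing implant these genes mark dividing immune, stromal and vascular cells together. In bulk RNA a lower number of dividing cells and less of these RNAs per cell cannot be told apart.

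The RefSeq promoter windows (250 bases before to 50 after the annotated start, GRCm38.p6) of the genes differ in their motifs by role, and 5 are printed because they show the motif patterns of genes that did and did not follow the 6-week pattern described below. Capitals mark a match to an E2F motif (TTTCCCGC, TTTCGCGC, TTTGCCGC or TTTGGCGC), a CHR motif (TTTGAA or TTCGAA) or a CCAAT box, and motifs may overlap. They were searched on both strands. Bases run 5′ to 3′ on the gene's own strand.
Mcm5, helicase subunit, chr8:75109259-75109558, + strand: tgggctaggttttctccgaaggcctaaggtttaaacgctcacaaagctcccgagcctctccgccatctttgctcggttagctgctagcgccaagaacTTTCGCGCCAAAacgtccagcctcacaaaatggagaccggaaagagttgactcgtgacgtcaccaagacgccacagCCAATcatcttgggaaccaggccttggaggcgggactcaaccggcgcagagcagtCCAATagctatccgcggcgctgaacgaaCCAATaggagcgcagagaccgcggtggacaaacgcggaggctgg
Cdt1, helicase loader, chr8:122567765-122568064, + strand: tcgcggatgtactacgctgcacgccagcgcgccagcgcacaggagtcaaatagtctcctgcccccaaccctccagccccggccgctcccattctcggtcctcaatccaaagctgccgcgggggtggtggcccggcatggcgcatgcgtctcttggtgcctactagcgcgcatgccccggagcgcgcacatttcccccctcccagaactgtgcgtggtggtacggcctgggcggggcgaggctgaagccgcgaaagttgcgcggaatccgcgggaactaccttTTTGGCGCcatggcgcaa
Cdk1, mitotic kinase, chr10:69352863-69353162, - strand: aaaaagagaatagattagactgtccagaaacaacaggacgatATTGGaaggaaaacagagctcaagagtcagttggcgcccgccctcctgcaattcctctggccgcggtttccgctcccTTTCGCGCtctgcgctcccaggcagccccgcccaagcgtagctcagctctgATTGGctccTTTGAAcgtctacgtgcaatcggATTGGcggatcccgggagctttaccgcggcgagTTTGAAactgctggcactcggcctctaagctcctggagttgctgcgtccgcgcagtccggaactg
Top2a, topoisomerase, chr11:99024140-99024439, - strand: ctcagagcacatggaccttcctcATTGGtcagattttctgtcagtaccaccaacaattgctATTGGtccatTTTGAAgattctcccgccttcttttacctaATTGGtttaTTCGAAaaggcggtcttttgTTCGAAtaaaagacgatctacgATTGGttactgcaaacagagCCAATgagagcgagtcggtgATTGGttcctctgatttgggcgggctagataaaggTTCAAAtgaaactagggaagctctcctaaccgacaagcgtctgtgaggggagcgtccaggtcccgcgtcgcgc
Bub1, checkpoint kinase, chr2:127831810-127832109, - strand: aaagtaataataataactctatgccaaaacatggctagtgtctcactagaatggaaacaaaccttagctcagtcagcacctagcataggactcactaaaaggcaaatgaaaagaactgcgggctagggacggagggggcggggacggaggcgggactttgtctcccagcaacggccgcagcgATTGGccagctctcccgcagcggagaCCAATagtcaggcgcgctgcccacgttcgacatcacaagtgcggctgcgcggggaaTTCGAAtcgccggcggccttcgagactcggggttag

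Promoter windows were on hand for 33 of the 40 genes, 39 windows in all, and none was on hand for Gins1, Mcm4, Gins2, Pole, Tpx2, Aurkb and Ccna2. A CHR motif and a CCAAT box occurred together in 10 of 12 mitosis windows (83.3%), against 7.5% of 32851 windows genome-wide. The E2F motif occurred in 6 of 10 helicase windows (60.0%) and 1 of 12 mitosis windows (8.3%), against 2.3% genome-wide. The mitosis window with an E2F match was that of Cdk1. Matches are letters in a window and were not measured as binding.

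Over all samples the counts that fell on the 40 genes ranged from 490 to 36290 per library, with a median of 17366.5, in libraries of 4722396 to 56185434 counts. The lowest number belonged to the 18-week library of NOR mouse 5, in which 85.7% of 8616431 counts lay on 1 ribosomal RNA gene (CT010467.1). The other 18-week NOR libraries held at least 8628 counts on these genes. The comparisons with NOR mice include the library of mouse 5 and were also run without it. Of the 40 genes, 15 overlap another annotated gene, among them Mcm7, Cdc45, Fen1 and Ccna2, and 4 (Pcna, Tyms, Ccnb1 and Ccnb2) have a named pseudogene, so their counts are uncertain where reads could be shared. Per kilobase of exon, the median level over samples was highest for Pcna (16.5 CPM, the count scaled to the library total, per kb), the sliding clamp of the DNA polymerases, followed by Tfdp1 (9.70), E2f1 (7.06) and Mki67 (6.43). It was lowest for Cdc6 (0.468) and Mcm10 (0.397), the helicase activator.

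To follow the genes together, the mean of their log2 CPM was taken in each sample (edgeR prior count of 2, TMM scaling within a batch). At 6 weeks of age this mean was 3.46 ± 0.11 (SD, n = 4) in batch 1 nonprogressors, 3.43 ± 0.14 (n = 5) in batch 1 progressors and 3.17 ± 0.20 (n = 4) in NOR mice. In batch 2 it was 3.83 ± 0.08 (n = 7) in nonprogressors and 3.85 ± 0.17 (n = 5) in progressors. Batch 2 levels were higher at each shared time, so values are compared within a batch or with batch as a term. Later group means lay between 2.61 (NOR, 18 weeks) and 3.05 (nonprogressors, 14 weeks) in batch 1 and between 2.99 (1 week before onset) and 3.23 (nonprogressors, 14 weeks) in batch 2. The 2.61 includes the library dominated by ribosomal RNA (1.74), where the other samples of that group read 3.19, 2.47 and 3.04. The next lowest later mean of batch 1 was 2.70 (NOR, 10 weeks).

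**Figure D1:**
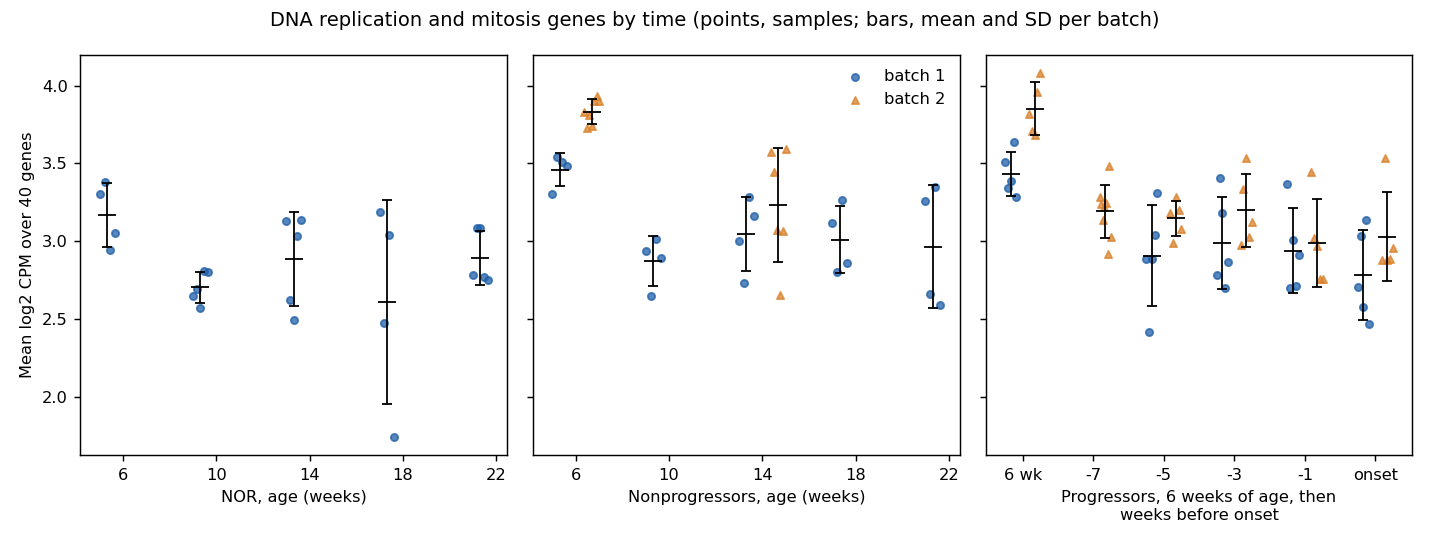
Mean log2 CPM over the 40 genes (y axis) in every sample, by age for NOR mice and nonprogressors and by age and then time to onset for progressors (x axis), with batches as colours and the mean and SD of each batch in black. The 6-week means of the NOD groups, 3.43 to 3.85, are the highest within their batch, with single later samples reaching the lowest 6-week points, and the lone NOR point at 1.74 is the library dominated by a ribosomal RNA gene.

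The nonprogressors address how these genes change with age in NOD mice that stayed normoglycemic. Of the 40 genes, 32 were higher at 6 weeks than in the mean of 10, 14, 18 and 22 weeks and 0 were lower (edgeR quasi-likelihood test with batch as a term, Benjamini-Hochberg adjusted over 21138 genes), where 14.2% of all genes tested were called higher. Their median log2 fold change was 0.56, against 0.03 over all genes tested. Of the 40 estimates 38 were positive, and 35 genes had an unadjusted p under 0.05 in either direction. The share of all genes at that unadjusted p was not counted, here or in the comparisons below. DESeq2 called 31 higher and 0 lower, where 2809 of 21138 genes tested were called higher.

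The helicase genes moved by moderate amounts. Mcm4, a subunit of the MCM2-7 ring, had the smallest p of the group (log2 fold change 0.62 ± 0.07 SE, adjusted p = 4.35e-06). In batch 1 Mcm4 read 18.4, 19.6, 18.6 and 16.6 CPM in the 4 nonprogressors at 6 weeks and 9.44 to 16.6 CPM (median 12.0) in 16 later samples. In batch 2 it ran from 22.0 to 29.6 CPM (median 27.9, n = 7) at 6 weeks and from 12.7 to 19.3 CPM (median 16.9, n = 6) at 14 weeks. The ranges did not overlap in either batch, though in batch 1 they met at 16.6 CPM after rounding. Mcm5, another subunit, read 13.9, 17.8, 17.5 and 18.0 CPM at 6 weeks in batch 1 against 6.33 to 15 CPM (median 10.4) later. The later samples that reached the lowest 6-week value numbered 2 of 16, and the fitted change was 0.66 ± 0.14 (adjusted p = 0.00133). In all, 9 of the 12 helicase genes were called, with a median of 0.47. The loader Cdt1 (0.09 ± 0.12) and the GINS subunits Gins1 (0.35 ± 0.14) and Gins2 (0.28 ± 0.11) did not pass.

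Of the 9 synthesis genes 6 were called, with a median of 0.46. Rrm2, the regulated subunit of ribonucleotide reductase, changed by 0.74 ± 0.15 and Tyms, thymidylate synthase, by 0.68 ± 0.11 on the log2 scale. Pcna gave -0.03 ± 0.10, the flap endonuclease Fen1 0.18 ± 0.12 and the DNA ligase Lig1 0.28 ± 0.11, and none of these passed. Among the regulators Tfdp1 (0.34 ± 0.06), the hemimethylated-DNA reader Uhrf1 (0.69 ± 0.17) and cyclin E1, Ccne1 (0.45 ± 0.13), were called and E2f1 (-0.07 ± 0.10) was not.

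The mitosis genes had the higher median, 0.80, and 14 of 15 were called. Bub1, a spindle checkpoint kinase, showed a log2 fold change of 1.07 ± 0.15 (adjusted p = 1.45e-05). Its levels were 3.75, 4.96, 4.62 and 4.69 CPM at 6 weeks in batch 1, where the 16 later samples held 1.37 to 3.15 CPM, and 6.53 to 7.56 CPM at 6 weeks in batch 2, where the 6 later samples held 2.02 to 5.37 CPM. Ccnb1 (chr13:100778650-100786570, - strand), cyclin B1, read 4.86, 8.12, 6.75 and 6.47 CPM at 6 weeks and 2.49 to 5.45 CPM later in batch 1, with a fitted change of 0.99 ± 0.15 (adjusted p = 6.33e-05). The Bub1 ranges stayed apart in each batch, and those of Ccnb1 overlapped in batch 1 and stayed apart in batch 2 (12.7 to 16.2 CPM against 3.17 to 9.64 CPM). Top2a (chr11:98992943-99024189, - strand), the topoisomerase that untangles replicated DNA, read 30.1, 31.0, 33.7 and 30.5 CPM at 6 weeks in batch 1 against 10.3 to 31.9 CPM later (0.86 ± 0.16, adjusted p = 0.000397). Mki67 (chr7:135689784-135716361, - strand, GRCm38), which encodes the proliferation antigen Ki-67, read 86.7, 95, 95.8 and 93.1 CPM against 42.8 to 87.9 CPM (0.71 ± 0.14, adjusted p = 0.000848). For Top2a and for Mki67 1 of the 16 later samples reached the lowest 6-week value. The mitosis gene not called was Cenpa, the centromeric histone (0.16 ± 0.12).

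**Figure D2:**
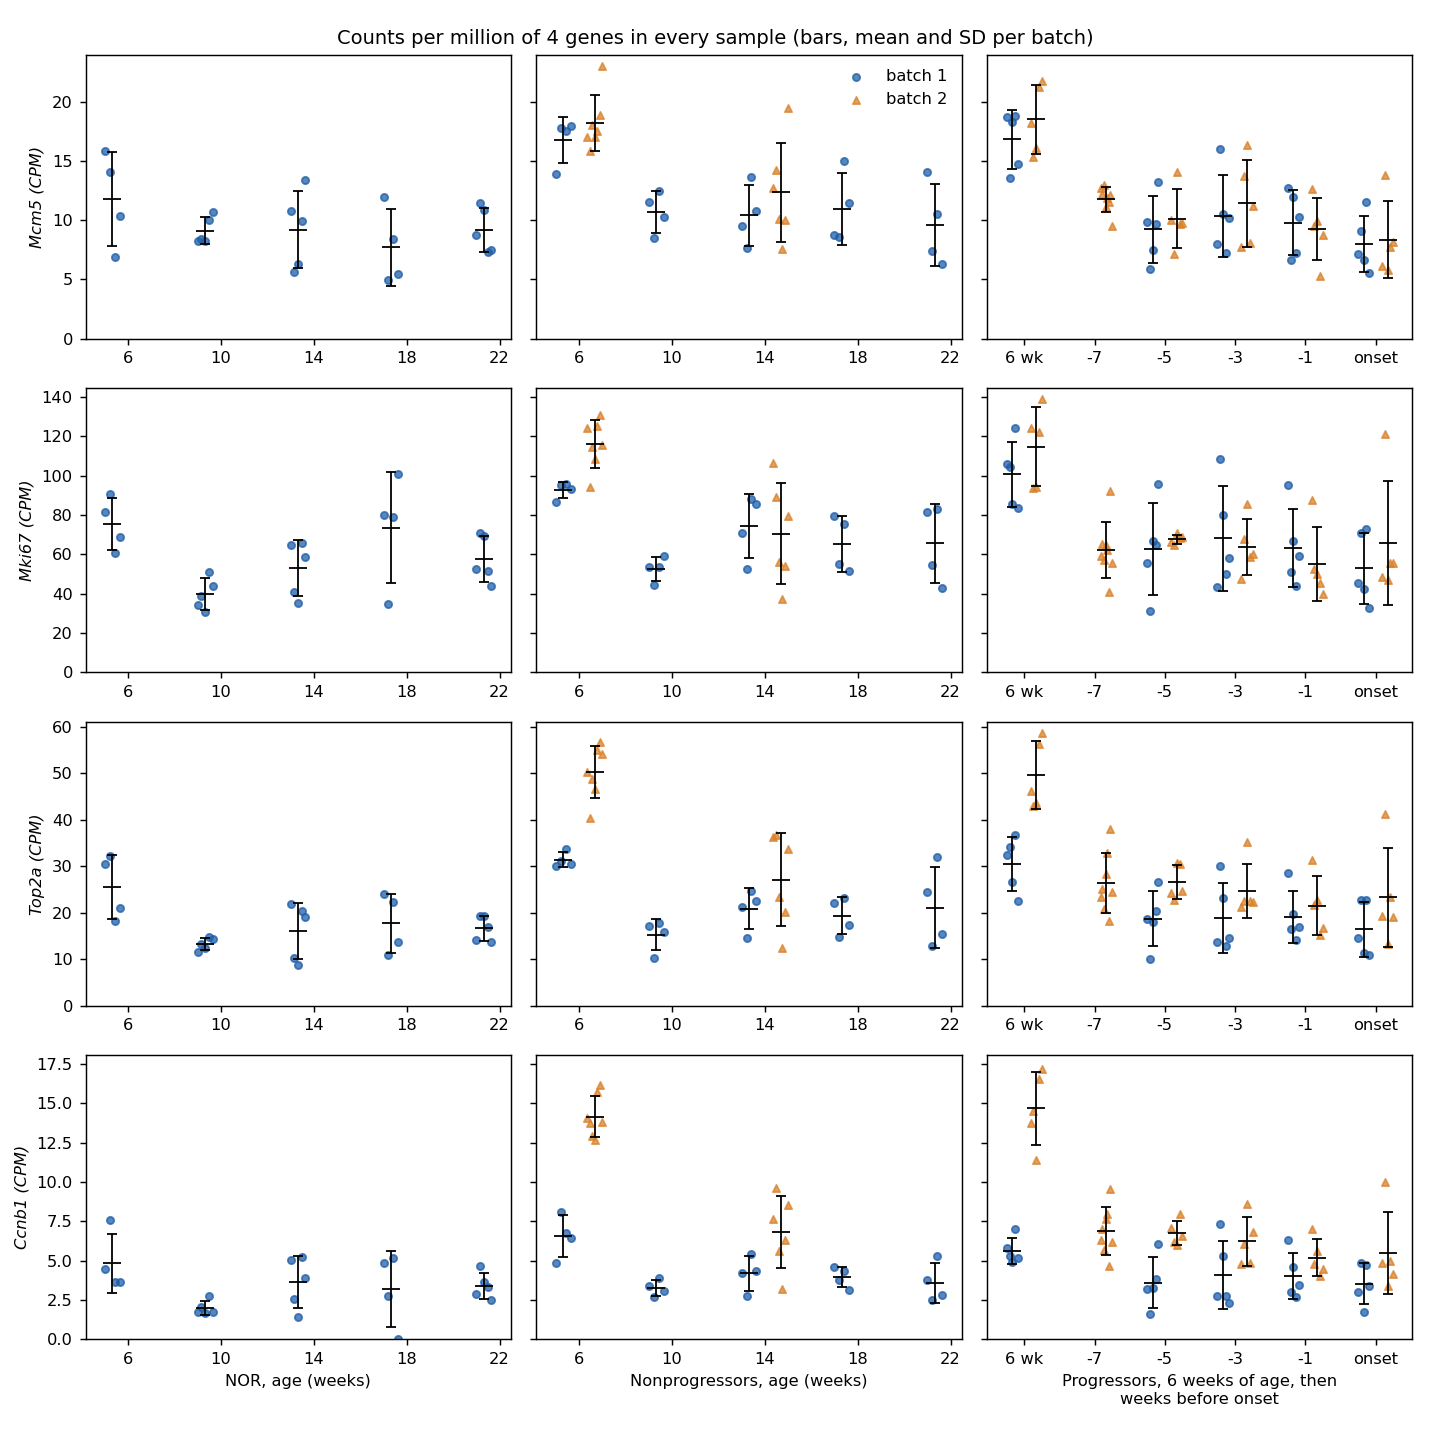
CPM (y axes, from 0) of the helicase gene Mcm5 and the mitosis genes Mki67, Top2a and Ccnb1 in every sample, by strain and outcome (columns) and time (x axes), with batches as colours and the mean and SD of each batch in black. In batch 2 the 6-week Ccnb1 values (11.4 to 17.2 CPM) lie above the later ones in nonprogressors and progressors, and in NOR mice the 6-week range of each gene overlaps that of the later samples pooled.

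Within single batches 21 of the 40 genes were called higher in batch 1 and 29 in batch 2, with medians of 0.50 and 0.56. Over all genes, 1303 of 19715 and 3406 of 19665 tested were called higher in these fits. In batch 2 the only later age is 14 weeks. With the mouse as a block 33 were called, where 2634 of 21138 genes tested were called higher. Each of the 10 nonprogressors with a 6-week and a later IN had the higher mean at 6 weeks, by 0.23 to 0.83 in 4 batch 1 mice and 0.26 to 1.08 in 6 batch 2 mice. None of their 16 and 6 later samples exceeded the mouse's own 6-week value.

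Progressors showed the same direction. In mice that later became diabetic the comparison asks how these genes differ before and during the approach to onset. Compared with the mean of 5, 3 and 1 weeks before onset and onset, 36 of 40 genes were higher at 6 weeks and 0 lower, where 19.9% of 21279 genes tested were called higher, and the median was 0.69 against -0.01 over all genes. DESeq2 called 36 higher and 0 lower, where 4303 of 21279 genes tested were called higher. At an unadjusted p under 0.05 there were 37 genes, and 26 and 34 were called within batches 1 and 2. Over all genes, 2631 of 19596 and 3511 of 21377 tested were called higher within those batches. By role 11 of 12 helicase genes, 8 of 9 synthesis genes, 3 of 4 regulators and 14 of 15 mitosis genes were called, with medians of 0.53, 0.45, 0.48 and 0.90. The 4 genes that did not pass were Cdt1 (0.15 ± 0.09), Pcna (-0.02 ± 0.10), E2f1 (0.18 ± 0.09) and Cenpa (0.04 ± 0.08). These 4 also were not called in nonprogressors.

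Mcm4 again had the smallest p (0.71 ± 0.08, adjusted p = 2.63e-10). Its 6-week levels in batch 1 were 19.3, 18.1, 17.7, 22.2 and 17.6 CPM, above all 20 later values (9.65 to 15.2 CPM), and in batch 2 they were 26.7, 21, 24.8, 29.7 and 31.6 CPM against 11.6 to 23.4 CPM, with 2 of 20 later samples at or above the lowest 6-week value. Tfdp1 showed a change of 0.47 ± 0.05 (adjusted p = 9.9e-10). It read 60.1, 55.3, 55.2, 59.5 and 59.9 CPM at 6 weeks in batch 2 and 34.5 to 45.4 CPM later, with no overlap, whereas in batch 1 33.6 to 47.5 CPM overlapped 26.9 to 40.6 CPM. Mcm7, a further ring subunit whose gene hosts 3 microRNAs and overlaps Cops6 and Ap4m1, read 20.4, 19.1, 21.3, 21.9 and 19.0 CPM in batch 1 against 10.2 to 17.8 CPM (0.53 ± 0.07, adjusted p = 1.49e-08). The values for Mcm7 did not overlap in batch 1 and did in batch 2 (18.6 to 23.7 CPM against 11.2 to 21.1 CPM).

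Mki67 in progressors read 106, 104, 85.7, 124 and 83.5 CPM at 6 weeks in batch 1 and 124, 93.9, 94.0, 122 and 139 CPM in batch 2, against 31.0 to 108 CPM and 40 to 121 CPM later (0.79 ± 0.14, adjusted p = 6.3e-06). Top2a ran from 42.9 to 58.5 CPM at 6 weeks and from 13.4 to 41.1 CPM later in batch 2, with no overlap (0.90 ± 0.13, adjusted p = 3.82e-07). Mcm5 changed by 0.89 ± 0.12 (adjusted p = 6.04e-08) and Ccnb1 by 0.98 ± 0.16 (adjusted p = 1.88e-06). Of the 40 fitted changes the largest were those of cyclin A2, Ccna2 (1.04 ± 0.15), Cdk1 (1.00 ± 0.14) and Uhrf1 (1.00 ± 0.13), each about a doubling.

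**Figure D3:**
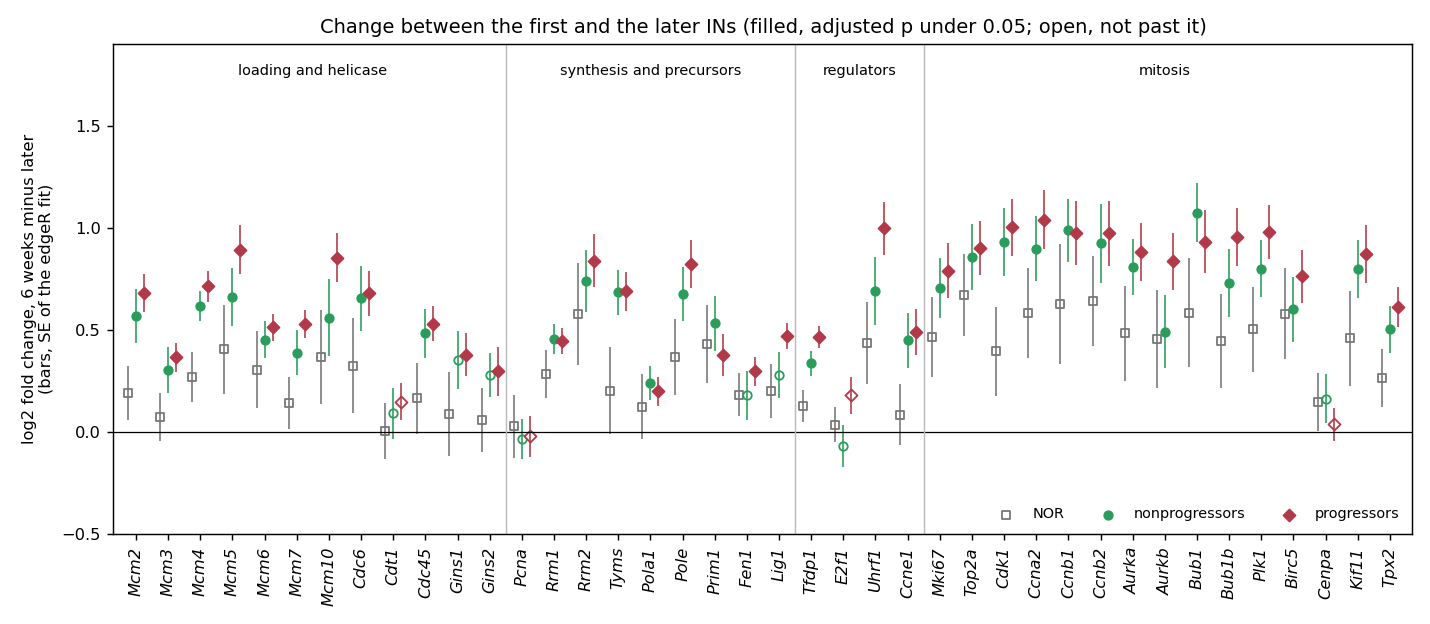
Log2 fold change of each gene (x axis, grouped by role) between 6 weeks and the later samples (y axis, with SE) in NOR mice, nonprogressors and progressors. The NOD points of most genes are filled (adjusted p under 0.05), and those of Cdt1, Pcna, E2f1 and Cenpa are unfilled in both NOD groups. All 40 NOR points are unfilled and above 0. They include the library dominated by ribosomal RNA, without which 38 estimates were positive.

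The change had a common shape within mice. The mean over the 21 helicase and synthesis genes and that over the 15 mitosis genes were each set against the mouse's own later samples. The mitosis genes changed by more in 4 of 4 NOR mice, 4 of 4 and 5 of 6 nonprogressors (batches 1 and 2) and all 5 and 5 progressors. For NOR mouse 5 the later samples include the library dominated by ribosomal RNA. In progressor 10 the mitosis genes were 1.52 and the replication genes 0.85 higher on the log2 scale at 6 weeks, and in NOR mouse 4 both were near 0 (0.02 and 0.01). Genes with a CHR motif in their window had a median change of 0.88 in progressors (14 genes, 0.04 to 1.00) and those without one 0.49 (19 genes, -0.02 to 1.00). Genes with an E2F motif had a median of 0.51 (11 genes) and those without 0.78 (22 genes). Both pairs are descriptions, since the motif classes follow the roles. Cdt1, with an E2F match, and Cenpa, with a CHR match and CCAAT boxes, carried motifs of their role and were not called.

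Markers of other cell types moved with the 6-week samples. All 5 fibroblast markers were higher at 6 weeks in nonprogressors (median log2 fold change 0.73) and in progressors (1.21). Their summed level in progressors was 26100 to 49800 CPM at 6 weeks and 6380 to 25900 CPM later in batch 1, and 31100 to 45700 CPM and 5080 to 26300 CPM in batch 2. In nonprogressors it was 20100 to 30600 CPM against 8970 to 34900 CPM in batch 1 and 29000 to 48200 CPM against 10200 to 24200 CPM in batch 2. Endothelial markers were higher for 2 of 5 genes in nonprogressors (165 to 269 CPM summed against 30.5 to 290 CPM in batch 1) and 4 of 5 in progressors (224 to 293 CPM against 23.1 to 351 CPM in batch 1). B cell markers were lower for 2 of 5 and 4 of 5 genes, and T cell markers lower for 4 of 5 in progressors. None of the fibroblast or endothelial markers was at 0 throughout. Of the remaining lists, epidermis (3 of 5 higher), hair follicle (1 of 6 higher, 1 lower) and mammary epithelium (1 of 5 lower) had called genes in nonprogressors. The summed epidermis median in nonprogressors was 2.75 CPM at 6 weeks (highest sample 509 CPM) and 1.65 CPM later in batch 1. In batch 2 the direction was opposite, 1.14 and 12.4 CPM. The epidermis genes Lor and Krt1 had a count of 0 in 62 and 52 samples. In progressors epidermis (1 lower), hair follicle (4 lower), mammary epithelium (4 lower) and neutrophil precursors (2 of 6 lower) did. Macrophage, neutrophil, erythroid, skeletal muscle and adipocyte lists had 0 called genes in either comparison. Over all genes, 3005 of 21138 tested were called higher and 2089 lower in nonprogressors. In progressors 4237 of 21279 were called higher and 4166 lower. The part of these cell types in the result was not tested.

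The other genes of the cell cycle moved alike. Of 66 further replication and mitosis genes, 48 were higher and 0 lower at 6 weeks in nonprogressors, led by the spindle proteins Nusap1 (0.86 ± 0.13) and Prc1 (0.79 ± 0.12), and 57 were higher and 1 lower in progressors, led by the cytokinesis protein Anln (1.08 ± 0.14) and the mitotic transcription factor Foxm1 (0.86 ± 0.11). The lower gene was Rfc5 (-0.21 ± 0.05), a clamp loader subunit. Of 21 brakes and G1 genes, Ccng1 (0.41 ± 0.13) and cyclin D3, Ccnd3 (0.30 ± 0.10), were higher in nonprogressors. In progressors 8 were higher, namely Ccnd3 (0.48), the CDK inhibitors Cdkn2b (0.60) and Cdkn2c (0.35), Ccng1 (0.46), the D cyclins Ccnd2 (0.51) and Ccnd1 (0.34), Myc (0.25) and Cdk4 (0.19). The antiproliferative Btg2 (-0.42 ± 0.07) and the retinoblastoma gene Rb1 (-0.26 ± 0.07) were lower. Over all genes, 3005 of 21138 tested were called higher in nonprogressors. In progressors 4237 of 21279 were called higher and 4166 lower.

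In NOR mice the direction was the same without a gene that passed. All 40 genes had a positive estimate, with a median of 0.32 against 0.00 over all genes, and 0 were called by edgeR, where 0.0357% of 19628 genes tested were called higher. At an unadjusted p under 0.05 there were 14 genes, with the share of all genes not counted, and DESeq2 called 0. Top2a came nearest (0.67 ± 0.20, adjusted p = 0.408), reading 30.5, 32.3, 18.1 and 21.1 CPM at 6 weeks in NOR mice 1, 2, 4 and 5 against 8.78 to 23.9 CPM (median 14.4) in 19 later samples. Mki67 read 81.3, 90.5, 60.9 and 69.0 CPM against 30.7 to 101 CPM (0.47 ± 0.20), Mcm5 15.8, 14.0, 6.93 and 10.4 CPM against 4.96 to 13.4 CPM (0.40 ± 0.22) and Ccnb1 4.45, 7.57, 3.66 and 3.62 CPM against 0 to 5.21 CPM (0.63 ± 0.29). Mouse 4 was among the low values for each. The highest later Mki67 value and the later Ccnb1 value of 0 came from the library dominated by ribosomal RNA. Within mice the mean was 0.37, 0.58, 0.03 and 0.44 higher at 6 weeks in mice 1, 2, 4 and 5. For mouse 5 the later samples include the library dominated by ribosomal RNA (1.74). Its other later values were 2.80, 3.14 and 2.75, against 3.05 at 6 weeks. The median was 0.24 without mouse 2 (37 positive) and 0.43 without mouse 4 (38 positive). Without the library dominated by ribosomal RNA it was 0.31 with 38 positive, and 0 of the 40 genes were called in each case. The fibroblast and endothelial lists had 0 called genes in NOR mice. Their summed fibroblast level was 22800 to 27600 CPM at 6 weeks and 13700 to 49200 CPM later, with the library dominated by ribosomal RNA included.

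Whether the 6-week difference itself differed between the strains was tested as an interaction in batch 1. No gene was called (0 of 40, where 0% of 20647 genes tested were called), 0 genes had an unadjusted p under 0.05 and DESeq2 called 0. The median difference, nonprogressor minus NOR, was 0.14 and 34 estimates were positive. The 95% intervals reached from -0.92 to 1.11, and their median half-width of 0.54 was wider than the median NOR change of 0.32. For Top2a the interval was -0.57 to 0.63 and for Mki67 -0.50 to 0.59. These values include the library dominated by ribosomal RNA. Without that library the median difference was 0.15 with 34 positive, and 0 of the 40 genes were called.

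In progressors the lower level was in place at the first later time sampled. At 7 weeks before onset 33 of the 40 genes were lower than at 6 weeks of age and 0 higher, where 6.64% of genes tested were called lower, and the median was -0.56. With the mouse as a block 11 were lower at a median of -0.60, and calls of lower genes over the whole table went from 1412 to 482. With the block within batch 2 alone 19 were lower at a median of -0.65, where 1026 of 21377 genes tested were called lower. Without the block 33 were lower within batch 2, where 1992 of 21377 genes tested were called lower. That batch holds all samples of that time. Leaving out progressor 10 left 21 lower, where 1162 of 21223 genes tested were called lower.

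Tfdp1 had the smallest p, falling from 55.2 to 60.1 CPM at 6 weeks (median 59.5, n = 5, batch 2) to 35.8 to 40.1 CPM (median 37.9, n = 8), with a log2 change of -0.51 ± 0.08 (adjusted p = 2.43e-05). Cdk1 went from 10.4 to 16.2 CPM to 3.66 to 7.54 CPM (-1.04 ± 0.21, adjusted p = 0.000634). Rrm1, the large subunit of ribonucleotide reductase, went from 36.6 to 49.0 CPM to 25 to 34.9 CPM (-0.44 ± 0.09, adjusted p = 0.00096). None of these 3 overlapped within batch 2. Mki67 held 40.9 to 92.4 CPM (median 60.7), Top2a 18.2 to 37.9 CPM (24.7), Mcm5 9.49 to 13.0 CPM (12.0) and Ccnb1 4.68 to 9.58 CPM (6.67), each below every 6-week value of batch 2. The 7 genes that did not pass included Cdt1 (0.10 ± 0.13) and Pcna (-0.05 ± 0.14). Of the other 66 cell cycle genes 43 were lower, led by the checkpoint protein Mad2l1 (-0.57 ± 0.11) and Anln (-0.99 ± 0.20). Over all genes, 1258 of 21279 tested were called higher and 1412 lower in this comparison. Of the brakes and G1 genes Cdkn1c, which encodes the inhibitor p57, was higher (1.30 ± 0.38), and Ccnd2 (-0.72), Cdk6 (-0.43), Ccnd3 (-0.39), Cdkn1b (-0.23) and Ccng2 (-0.47) were lower. Beside this the fibroblast genes Col1a1 (-1.13 ± 0.22) and Col1a2 (-0.99 ± 0.23) were lower, 2 of 5 of that list, as were the keratins Krt1 and Krt10 (2 of 5), while Krt18 (1 of 5 mammary epithelium markers) and Ltf (1 of 6 neutrophil precursor markers) were higher. The part of these cells was not tested.

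Among the 40 genes no call was made on the way from there to onset. Between 7 and 5 weeks before onset 0 of 40 genes were called (0% of genes tested), 0 had an unadjusted p under 0.05, DESeq2 called 0, and estimates ran from -0.26 to 0.22 with a median of -0.06. From 5 weeks before onset to the mean of the 3 last times, 0 of 40 were called (0.385% of genes tested in either direction), 0 had an unadjusted p under 0.05, DESeq2 called 0, and the median was -0.03. The 95% intervals reached from -0.69 to 0.58 for the earlier step and from -0.45 to 0.36 for the later. The G1 brake Cdkn1c was lower over the later step (-1.24 ± 0.26, adjusted p = 0.0212, edgeR), as was Ngp (-3.26 ± 0.49), 1 of 6 neutrophil precursor markers. At onset Mki67 read 45.5, 70.9, 42.2, 72.7 and 32.8 CPM in batch 1 and 48.6, 121, 47.0, 55.3 and 55.5 CPM in batch 2, where progressor 7 stood apart. With batch 1 alone or batch 2 alone 0 of the 40 genes were called over the later step. Over all genes, 17 were called higher and 59 lower of 19596 tested in batch 1. In batch 2 the counts were 0 and 2 of 21377.

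Progressors and nonprogressors were compared directly to ask whether outcome went with these genes. At 6 weeks 0 of 40 genes were called (0% of 19082 genes tested), DESeq2 called 0, and the median difference was 0.00. The interval of every gene lay within -0.34 to 0.37 on the log2 scale. For Mki67 the difference was 0.04 (95% interval -0.13 to 0.21), for Top2a -0.03 (-0.21 to 0.14), for Mcm5 0.01 (-0.16 to 0.19) and for Ccnb1 -0.06 (-0.26 to 0.14). E2f1, the activator of G1/S transcription, was the 1 gene with an unadjusted p under 0.05 (0.17 ± 0.08, adjusted p = 0.891). The later INs were those from 5 weeks before onset to onset in progressors and at 10 to 22 weeks of age in nonprogressors. Their ages were not matched, and in batch 2 the nonprogressors gave 14-week INs alone. In the later INs, with each mouse's counts summed, 0 of 40 were called (0.0132% of 22696 genes), 1 had an unadjusted p under 0.05 and DESeq2 called 0. There 3 estimates were positive and 37 negative, with a median of -0.11 and intervals between -0.64 and 0.36. The interaction of outcome with the 6-week contrast called 0 of 40 (0% of 22722 genes), with 1 unadjusted p under 0.05 (E2f1, 0.28, 95% interval 0.02 to 0.55), 0 by DESeq2 and a median of 0.06 (33 positive). Within batch 1 the median was 0.03 with 22 positive and within batch 2 it was 0.18 with 37 positive, and 0 genes were called in either. The batch 2 value sets progressors from 5 weeks before onset to onset against nonprogressors at 14 weeks alone. These comparisons share the 6-week and later samples with the contrasts above.

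The strains were compared in batch 1 with all counts of a mouse summed (9 NOD and 5 NOR mice). Relative to NOR, 5 of the 40 genes were higher in NOD mice, where 3.87% of 23387 genes tested were called higher, and 1 was lower, where 5.11% were called lower. The median was 0.19 against 0.00 over all genes, and 36 estimates were positive. At an unadjusted p under 0.05 there were 25 genes, with the share of all genes not counted. The 15 mitosis genes had a median of 0.29 with 15 positive, and the 12 helicase genes 0.11.

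Tpx2 (chr2:152847964-152895321, + strand), a spindle assembly factor, had the smallest p of the higher genes (0.32 ± 0.06, adjusted p = 0.00474). It read 10.8, 10.6, 9.59, 12.0 and 10.5 CPM in NOR mice 1 to 5 and 11.9 to 15.3 CPM (median 13.5) in the NOD mice. Rrm2 read 6.02, 5.84, 4.02, 5.12 and 5.28 CPM in NOR and 6.37 to 7.86 CPM in NOD mice (0.41 ± 0.09, adjusted p = 0.00676). Mki67 read 62.9, 58.5, 43.0, 61.2 and 55.3 CPM in NOR and 61.8 to 80.2 CPM in NOD mice (0.34 ± 0.08, adjusted p = 0.0138). The strains did not overlap for Rrm2 and overlapped slightly for Tpx2 and Mki67, and NOR mouse 3, which has no 6-week sample, was the lowest for each. The other higher genes were Aurkb, the Aurora B kinase (0.31 ± 0.09), and Cdc45 (0.23 ± 0.07), whose gene overlaps Ufd1 on the opposite strand.

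Pcna (chr2:132249162-132253314, - strand) was the lower gene (-0.31 ± 0.06, adjusted p = 0.00371). It read 41, 41.7, 41.9, 44.6 and 37.6 CPM in NOR mice 1 to 5 and 29.2 to 39.0 CPM (median 33.2) in the NOD mice, with a small overlap. Pcna has annotated pseudogenes (Pcna-ps1 and Pcna-ps2), so that its counts can be split among copies. Of the genes whose start lies within 2 Mb of Tpx2 on chromosome 2, 36 of 66 tested were called between the strains in either direction (54.5%), near Pcna on chromosome 2 14 of 61 (23%) and near Aurkb on chromosome 11 58 of 147 (39.5%), against 8.9% of all genes placed. Near Cdc45 (3 of 113, 2.7%) and Mki67 (1 of 25, 4.0%) the share was lower than that, and near Rrm2 it was 2 of 20 (10.0%). The part of local sequence differences between the strains was not tested.

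**Figure D4:**
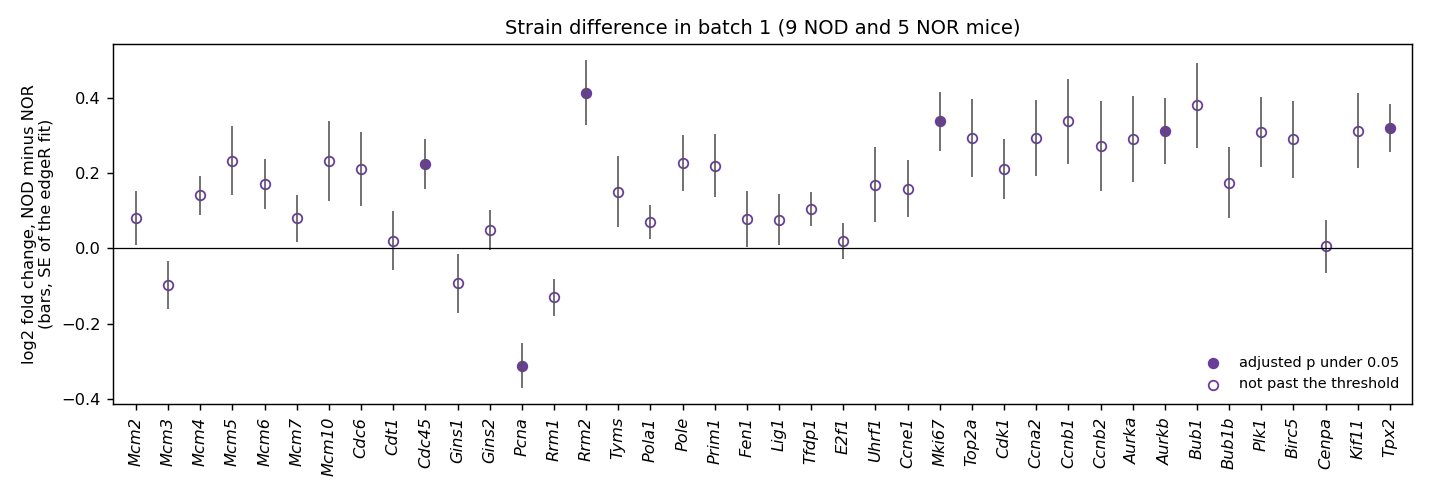
Log2 fold change of each gene (x axis) between 9 NOD and 5 NOR mice in batch 1 (y axis, with SE). Filled points pass the threshold, 5 above 0 and Pcna below it, and 36 of the 40 estimates are above 0.

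The strain calls were few and moved with the way they were made. DESeq2 called 13 higher and 1 lower, where 1499 of 23387 genes tested were called higher and 1472 lower. When a mouse was left out 3 to 8 were higher, where 596 to 896 genes were called higher over the whole table. The 8 came without NOR mouse 1 (689 of 23727 genes). The 3 came without NOR mouse 2, 3, 4 or 5, progressor 1 or 4 or nonprogressor 4. The lower genes numbered 2 without NOR mouse 3 or nonprogressor 3. With nonprogressors alone against NOR mice 1 was higher at a median of 0.25, and with the 6-week samples alone 1 was higher at a median of 0.30. Calls of higher genes over the whole table also went down, from 906 to 605 and 165. Without the library dominated by ribosomal RNA 7 of the 40 genes were higher, where 1000 of 23398 genes tested were called higher. Of the other 66 cell cycle genes 17 were higher, among them Anln (0.31 ± 0.08), and Cdca8 was lower (-0.75 ± 0.09). The count of 17 moved as well. It was 30 by DESeq2, and 2 (without NOR mouse 3 or 5) to 19 when a mouse was left out. With separate samples it was 4, with nonprogressors alone 2 and with the 6-week samples alone 0. Among brakes and G1 genes Ccnd1 (0.42 ± 0.06), Cdkn1a (0.26 ± 0.06), Myc (0.26 ± 0.06) and Cdk6 (0.20 ± 0.05) were higher. Of the cell type markers the macrophage gene Csf1r (-0.26 ± 0.06), the neutrophil gene Csf3r (-0.94 ± 0.18) and Cd4 (-1.13 ± 0.28) were lower and the erythroid Hba-a1 (1.63 ± 0.29) higher in NOD mice, 1 gene of each list of 5, 5, 5 and 4 measured, and the part of these cells was not tested.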

How the data were processed

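Total RNA of explanted INs was sequenced after ribosomal RNA depletion. Per the labels, the authors trimmed reads with cutadapt, checked them with FastQC and MultiQC, aligned them with STAR to GRCm38 and estimated expected counts per gene with RSEM (versions and strandedness not given in the sources used here). The deposited values are expected counts in 2 tables, 1 per batch, with no normalization. They were rounded, 4 reporter rows were left out, and all 120 columns matched a sample. The members and the gene lists were chosen with earlier results of these data known.

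Comparisons used edgeR 4.0.16 in R 4.3.3 (filterByExpr, TMM, quasi-likelihood test, Benjamini-Hochberg adjustment over all genes tested, threshold 0.05), with batch as a term where both batches entered. Counts were summed per mouse for the strain and the later-outcome comparisons. DESeq2 1.42.0, no filter, the mouse as a block, single batches, leaving out each mouse and separate samples were the alternatives, and the block within batch 2 was chosen after seeing the data. Same-numbered samples come from the same mouse per the labels, so the block pairs them, but deviations from group means did not correlate within mice (mean r of -0.022 in NOR mice, 0.008 in nonprogressors and 0.002 in progressors over 2000 genes). Different samples of a mouse enter the age contrasts as separate replicates. The lowest chi-square per degree of freedom among 239 replicate pairs was 11.01, so no library was a repeat. The scripts were tested on simulated data. Genes named with values are Mki67, Top2a, Mcm5 and Ccnb1, the 3 members with the smallest p in each direction of a comparison, the leading 2 of the other cell cycle genes (1 of them, in the strain comparison, is not reported here) and all called brakes and G1 genes. The remaining members are named to give the role's range or because they did not pass, chosen after their values were seen. Coordinates and exon lengths are from GENCODE M21 and promoters from RefSeq, both on GRCm38. Total counts were 4722396 to 56185434 in batch 1 and 29029239 to 43880986 in batch 2. Counting error bears most on the NOR library with 490 member counts. Intervals are 95% t intervals on the residual degrees of freedom.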

Additional observations from a re-analysis of the deposited data

Results flagged for a closer look

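Among 115 tests of a sample against the rest of its group, of which chance flags about 1 in 20, 5 values stood apart by their gap to the nearest sample. At onset progressor 7 had a mean log2 CPM over the 40 genes of 3.54, where the other 4 batch 2 progressors held 2.88 to 2.96, and its Mki67 was 6.92 on the log2 CPM scale against 5.56 to 5.80. Leaving out progressor 7 left 35 of the 40 genes higher at 6 weeks, where 4142 of 21210 genes tested were called higher. At 3 weeks before onset progressor 8 had a Top2a value of 5.13 against 4.41 to 4.50 in the other 4. Nonprogressor 1 had the lowest Mcm5 at 6 weeks in batch 1, 3.8 against 4.14 to 4.17 in 3 mice. The 18-week library of NOR mouse 5, with 490 counts on the 40 genes, had a Ccnb1 value of -3.96, from a count of 0, against 1.48 to 2.40 in 3 mice.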

How the results depend on the processing

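Of 5240 single-gene values recomputed under an alternative, 5007 kept their direction and side of the threshold, 194 lost the call, 38 gained one and 1 reversed. The reversal was Pcna in nonprogressors with no batch term, called higher at 0.29 in place of -0.03. In that setting a different gene, E2f1, was called lower. In nonprogressors 21 genes were higher within batch 1. For 7 weeks before onset against 6 weeks, the replicate block (mouse) called 11 lower and the block within batch 2 19, and leaving out a mouse gave 21 to 34. The block changed no other count of members by over 1.5 times. For the strain comparison, DESeq2 called 13 higher, no filter on low counts 3, separate samples 2, nonprogressors against NOR 1 and 6-week samples alone 1 (and 0 lower). Over all genes tested, the same settings in order called 1499 of 23387, 730 of 40292, 915 of 18974, 605 of 22975 and 165 of 19078 higher. Leaving out a mouse gave 3 to 8 higher and 1 to 2 lower. The difference in mean log2 CPM between 6 weeks and later in batch 1 nonprogressors was 0.49 with TMM and 0.74 with library totals alone. The causes of these shifts were not tested, and fewer samples or genes entered several of them. In the 7 comparisons with 0 members called in both directions, 0 were called under every alternative run. Depth limited the NOR 18-week library, and single-batch fits rest on fewer mice.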

Other observations

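The 6 nonprogressor INs whose labels give days since implantation entered no comparison because no label ties them to an age. Their mean log2 CPM over the 40 genes was 2.87 ± 0.13 at 31 days, 2.92 ± 0.02 at 38 days and 2.83 ± 0.04 at 108 days (SD, n = 2 each, batch 1), below the 3.30 to 3.54 of the 6-week nonprogressors of that batch. Mki67 held 48.2 and 57.4 CPM at 31 days, 54.9 and 56.6 CPM at 38 days and 48 and 53.9 CPM at 108 days.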
